A study of Mus musculus with 3 samples.

Results

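The clustered protocadherins are 58 genes in 3 tandem arrays on mouse chromosome 18: 14 alpha genes (Pcdha1 to Pcdha12, Pcdhac1 and Pcdhac2), 22 beta genes (Pcdhb1 to Pcdhb22) and 22 gamma genes (12 Pcdhga, 7 Pcdhgb and 3 Pcdhgc genes). A peak belonged to an array when it overlapped, by at least 1 bp, the span of a listed gene extended by 5 kb on either side, and each peak was counted once. By this rule the arrays held 112 of the 112153 ATRX peaks of the control library and 86 of the 105674 peaks of the MICAL1-FL library. ATRX is a chromatin remodeller that binds repeats and heterochromatin and works with the histone chaperone DAXX to deposit histone H3.3.

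Both libraries were chromatin immunoprecipitations with an antibody against ATRX, sequenced in pairs, with input DNA as the background. The only input sample of the series is labelled as input of control neurons, and no input of MICAL1-FL neurons is listed. The cells were primary neurons from C57BL6/J mouse embryos (E15.5-17.5), infected with a lentivirus on day 5 in vitro and analysed on day 14 in vitro. The control virus carried mCherry, a red fluorescent protein, and the other carried MICAL1-FL, named here as the labels spell it; MICAL1 is a monooxygenase that oxidises actin. Each condition had 1 ChIP library, and the labels do not say how many animals or cultures went into it, so no test between the conditions was possible. Intervals are exact, at 95%, and cover counting error only; they do not cover differences between cultures. The medium held 2% serum, no expression was measured, and the labelled cell type could therefore not be checked against its marker genes. In such bulk chromatin, fewer cells with ATRX at a site and less ATRX per cell cannot be told apart.

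In neurons the clustered protocadherins act as a surface code. Each cell transcribes its own choice of array promoters, the proteins form dimers and recognise identical combinations on another membrane, and this lets branches of 1 neuron tell themselves from those of others. In the alpha and gamma arrays every variable exon has its own promoter and encodes a whole extracellular part, which is spliced to constant exons at the far end of the array; the beta genes are single-exon genes with no constant exons. Promoter choice is known to involve CTCF, cohesin, distant enhancers and DNA methylation, while the C-type genes at the ends of the alpha and gamma arrays are chosen by most neurons and less at random.

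The peaks of both lists were shallow, which sets how much each can carry. The depth of a peak, meaning the ChIP fragments at its summit, ranged from 4 to 11 in the arrays in the control library and from 4 to 9 in the MICAL1-FL library, and the lists go up to p-values of 0.0498 and 0.0496. A q-value of at most 0.05 was reached by 3 control and 0 MICAL1-FL array peaks. The peak names in the second list do not name MICAL1-FL, so its group rests on the sample label alone. Neither the labels nor the lists name a genome build; peak positions below are those of the lists, and gene spans are those of RefSeq for GRCm38.p6.

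ATRX peaks were densest in the gamma array in both libraries. The gamma array had 59 control peaks in 190.1 kb, or 310.4 peaks per Mb (interval 236 to 400.3), and 50 MICAL1-FL peaks, or 263 per Mb (195 to 347). The alpha array had 35 control peaks in 269 kb, or 130.3 per Mb (90.8 to 181), and 27 MICAL1-FL peaks, or 101 per Mb (66.2 to 146). The beta array had 18 control peaks in 203 kb, or 88.8 per Mb (52.6 to 140.3), and 9 MICAL1-FL peaks, or 44.4 per Mb (20.3 to 84.3). Over the autosomes as a whole, the density was 45.9 for control and 43.4 for MICAL1-FL peaks. Gamma thus stood at 6.77 (control) and 6.06 (MICAL1-FL) times the autosomal density, and alpha at 2.84 and 2.31 times. Beta stood at 1.94 times among control peaks and at 1.02 times among MICAL1-FL peaks, where its interval spans the autosomal value. With the gaps between its genes included, the control value was 1.64 times (0.9999 to 2.53), an interval that reaches the autosomal value. In both libraries the gamma interval lay above the alpha and beta intervals, while those of alpha and beta overlapped.

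**Figure D1:**
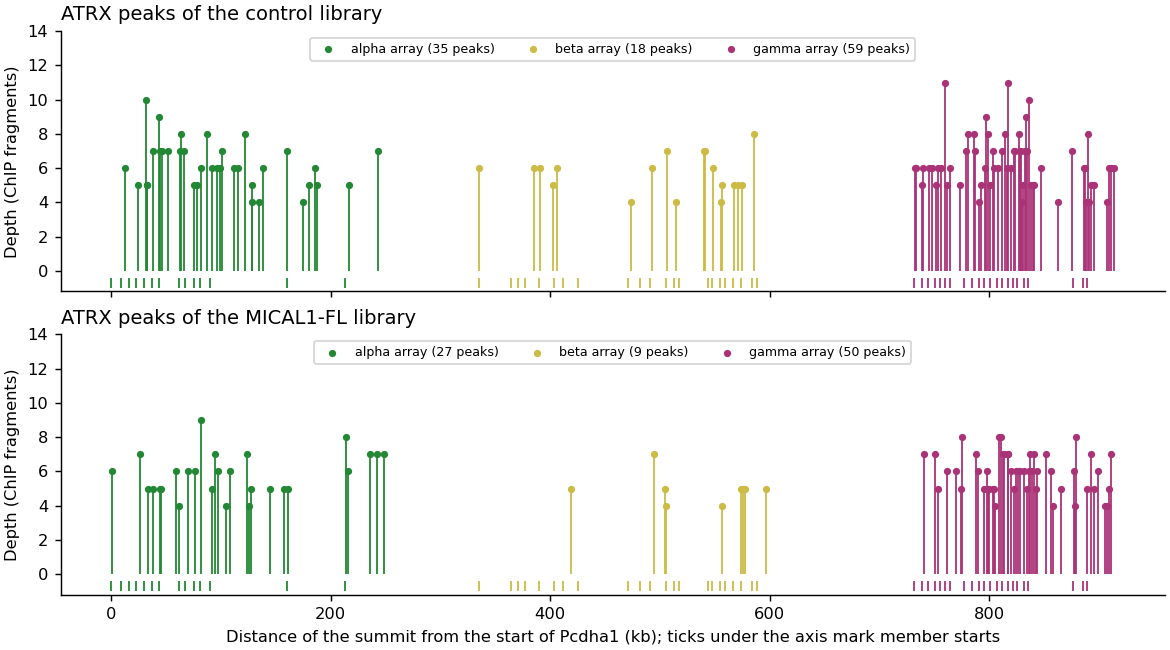
Each stem is 1 ATRX peak, drawn at the distance of its summit from the start of Pcdha1 in kb, with its height giving the depth in ChIP fragments; colours mark the alpha, beta and gamma arrays, ticks below mark member starts, and the upper and lower panels are the control and MICAL1-FL libraries. The gamma array holds 59 and 50 of the 112 and 86 stems, and the tallest MICAL1-FL stem is 9 fragments against 11 in the control panel.

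The density of the gamma array was set against windows of its own length laid end to end over the autosomes. Of 12630 such windows, 0% held at least its 59 control summits and 0% at least its 50 MICAL1-FL summits; the median window held 8 in each list. The fullest window that did not touch the arrays held 48 control summits and 41 MICAL1-FL summits. For the alpha array, 0.492% of 8937 windows of its length held at least its 35 control summits and 1.45% held at least its 27 MICAL1-FL summits. For the beta array, with the gaps between its genes included, 12.2% of 9010 windows held at least its 20 control summits and 68.8% at least its 9 MICAL1-FL summits. The beta array in the MICAL1-FL list thus held fewer summits than the median window, which had 11, and the gamma array held more summits than any window did in either list. The mappability of the windows was not measured.

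The stretches between the arrays had fewer peaks. The 66.1 kb between the alpha and beta arrays held 3 control peaks and 0 MICAL1-FL peaks, and the 130.4 kb between the beta and gamma arrays held 6 and 4. These gave 45.4 and 46.0 control peaks per Mb, close to the autosomal value, with wide intervals (9.36 to 133 and 16.9 to 100.2). The 1 Mb before the arrays held 43 control and 26 MICAL1-FL peaks, and the 1 Mb after them held 77 and 63. The 1 Mb after the arrays, with 77 control peaks per Mb (60.8 to 96.2) and 63 MICAL1-FL peaks per Mb (48.4 to 80.6), was above the autosomal density but below the gamma array. Diaph1, a formin that builds actin filaments and lies next to the gamma array, had 8 control and 7 MICAL1-FL peaks, and 1 of the control peaks counted in the gamma array lies in it. Taf7, which encodes a subunit of the general transcription factor TFIID and sits between the beta and gamma arrays, had 0 control peaks and 1 MICAL1-FL peak.

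**Figure D2:**
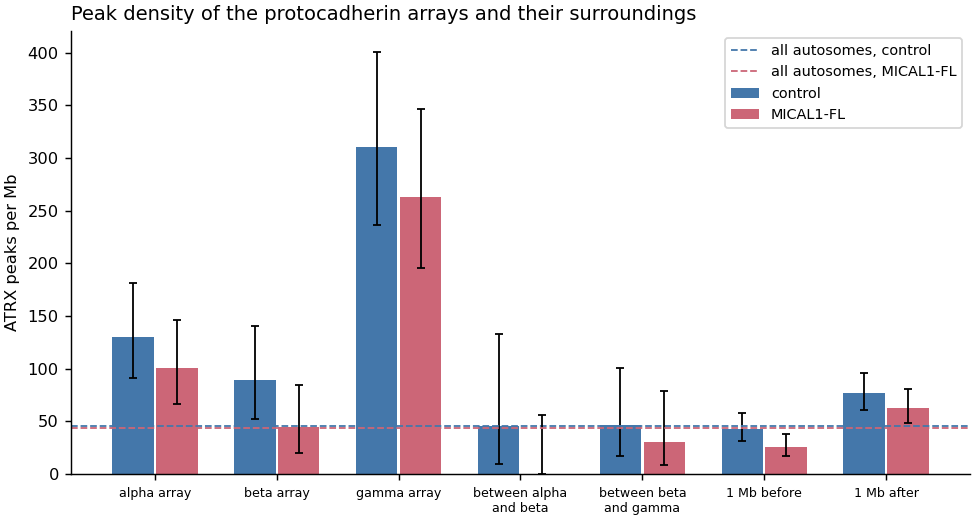
Bars give ATRX peaks per Mb in each array, in the gaps between arrays and in 1 Mb on either side, for the control (blue) and MICAL1-FL (red) libraries; error bars are exact 95% intervals that cover counting error, and dashed lines are the autosomal densities of 45.9 and 43.4. The gamma bars, at 310.4 and 263 peaks per Mb, stand above all the others, and both bars of the gaps between arrays lie near or below the lines.

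Within the gamma array the peaks ran through all kinds of genes. The stretch of the A and B genes, from Pcdhga1 to the start of Pcdhgc3, had 332 control peaks per Mb (245 to 440) and 270 MICAL1-FL peaks per Mb (192 to 369), and the stretch of the C genes had 282 (135 to 519) and 310.2 (155 to 555), so the 2 stretches did not differ beyond counting error in either list. Control peaks covered 19.97% of the gamma array, 6.95% of the alpha array and 3.83% of the beta array. For MICAL1-FL peaks these shares were 13.9%, 4.83% and 1.503%.

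Because gamma genes share their constant exons, a peak was assigned to the gene whose own stretch, from its start to the start of the next gene, held its summit. Every one of the 12 A and 7 B genes had a control summit in its own stretch, and 15 of these 19 also had one in the MICAL1-FL list. Of autosomal pieces as long as the own stretches of the 22 gamma genes, 27% held a control summit, 26% a MICAL1-FL summit and 11% both, while 16% held control summits alone and 15% MICAL1-FL summits alone. The 4 A genes with control summits alone were Pcdhga1, Pcdhga3, Pcdhga4 and Pcdhga6, with 2, 2, 1 and 2 summits. All 7 B genes had summits in both lists, with 2 to 3 control and 1 to 3 MICAL1-FL summits each, although their stretches are only 3.78 to 5.97 kb long. Pcdhgb8, which the annotation lists as a transcribed pseudogene, had 3 control and 2 MICAL1-FL summits like its neighbours. The A and B genes had a median of 2 summits each in both lists. Pcdhga12, the last of them, had the most, 7 control and 10 MICAL1-FL summits, but its stretch of 40.8 kb runs on to the first C gene. Pcdhga11, with a stretch of 6.03 kb, had 5 control and 2 MICAL1-FL summits.

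The gamma peak of the control list with the highest -log10 p, on chromosome 18 from 37689823 to 37690617, lay in the stretch of Pcdhgb2 and held 11 fragments, with a deposited fold over background of 4.58 and a q-value of 0.00518; a peak in the stretch of Pcdhga10, at 37746907 to 37747949, was as deep but had a lower fold of 3.18. The second gamma peak under a q-value of 0.05, at 37765835 to 37767014 in the stretch of Pcdhga12, held 10 fragments. In the MICAL1-FL list 3 gamma peaks shared the highest -log10 p, with 8 fragments each, a fold of 3.44 and a q-value of 0.626. They lay at 37738143 to 37739211 and 37740494 to 37741433 in Pcdhga9 and at 37808703 to 37809087 in Pcdhgc3. The Pcdhga12 control peak overlapped a MICAL1-FL peak of 6 fragments, and the Pcdhgb2 control peak overlapped none.

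In the alpha array, 11 of the 14 genes had a summit in their own stretch in each list, and 9 had one in both. When the autosomes were cut into pieces as long as the own stretches of the alpha genes, 41.6% held a control summit, 40.4% a MICAL1-FL summit and 25% both, while 16.6% held control summits alone and 15.4% MICAL1-FL summits alone. Pcdha3 had none in either list. Pcdha2 and Pcdha8 had control summits alone, 1 and 3, and Pcdha1 and Pcdha9 had 1 MICAL1-FL summit each and no control summit. Pcdha12 had the most, 11 control and 10 MICAL1-FL summits, in a stretch of 69.9 kb that ends at Pcdhac1. By the sum of both lists, Pcdha7 came next, with 4 in each list in 18.7 kb. The deepest control peak, at 36961495 to 36962169 in the stretch of Pcdha5, held 10 fragments at a fold of 4.20 and a q-value of 0.0338, the only alpha peak with a q-value of at most 0.05. The deepest MICAL1-FL peak, at 37012085 to 37012949 in Pcdha11, held 9 fragments at a fold of 3.82 and a q-value of 0.139. It overlapped a control peak of 6 fragments at 37012206 to 37012555, with the summits 116 bp apart, and so was a site present in both lists and deeper in the MICAL1-FL one.

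The beta genes are apart from one another and have no shared exons, so their bodies can be counted singly. Of the 22 beta gene bodies, 12 were overlapped by a control peak and 3 by a MICAL1-FL peak. Autosomal pieces as long as these bodies were overlapped in 15.9% and 15.2% of cases, so the MICAL1-FL count is near that background. Over all protein-coding genes, whose median length is 17.2 kb against 3.42 kb for the beta genes, the shares were 51.9% and 49.7%. Own stretches also take in gaps more than 5 kb from any gene, where a summit is not an array peak. The beta stretches thus held 20 control summits, against 18 array peaks. The summits of Pcdhb8 in both lists and a control summit of Pcdhb14 lay in such gaps. Counted by own stretch, 15 genes had a control summit, 5 had a MICAL1-FL summit, 4 (Pcdhb8, Pcdhb11, Pcdhb17 and Pcdhb20) had both and 6 (Pcdhb2, Pcdhb3, Pcdhb10, Pcdhb15, Pcdhb18 and Pcdhb22) had neither. The other 11 had control summits alone, and Pcdhb7 had a MICAL1-FL summit alone. Of autosomal pieces as long as the own stretches of the beta genes, 35.2% held a control summit, 34.1% a MICAL1-FL summit and 17.2% both, while 18% held control summits alone and 16.9% MICAL1-FL summits alone. No beta gene had more than 3 summits in either list: Pcdhb11 and Pcdhb20 each had 1 control and 3 MICAL1-FL summits, while Pcdhb14 had 3 control summits and 0 in the other list. The deepest control peak, at 37515898 to 37516251 in Pcdhb21, held 8 fragments at a fold of 3.43 and a q-value of 0.705. The deepest MICAL1-FL peak, at 37424662 to 37425029 in Pcdhb11, held 7 fragments at a fold of 3.06 and a q-value of 1.

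**Figure D3:**
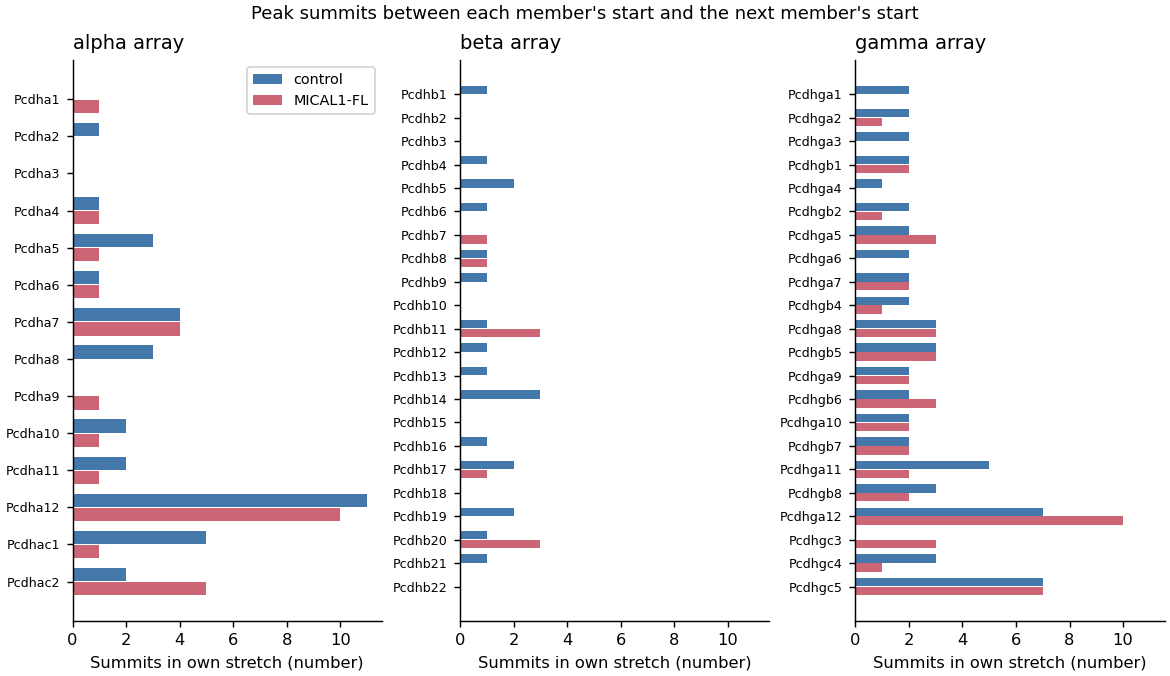
Horizontal bars give, for each of the 58 genes in array order, the number of peak summits between its start and the next gene's start in the control (blue) and MICAL1-FL (red) libraries. Summits in beta gaps more than 5 kb from a gene, which are not array peaks, are included. All 19 gamma A and B genes carry a blue bar, 15 of the 22 beta genes do, and the longest bars belong to Pcdha12 (11 and 10) and Pcdhga12 (7 and 10), whose stretches are 69.9 kb and 40.8 kb long.

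The C-type genes, which are regulated apart from the others, each had a summit in at least 1 list. The stretches of Pcdhac1 and Pcdhac2 are long, at 53.5 and 45.2 kb. Autosomal pieces matched to the C-type stretches alone were not counted, so that count has no background beside it. Pcdhac1 had 5 control summits and 1 MICAL1-FL summit, while Pcdhac2, needed for the even spacing of serotonergic axons, had 2 and 5. The control peak nearest the start of Pcdhac1 lay 263 bp from it, at 37089652 to 37090581, with 7 fragments, and the MICAL1-FL peak nearest the start of Pcdhac2 lay 249 bp from it, at 37143731 to 37145165, with 8 fragments. Neither had an overlapping peak in the other list. Pcdhgc3, whose protein can inhibit Wnt signalling through Axin1, had 0 control summits in its stretch and 3 MICAL1-FL summits, all within 2499 bp after its start; 1 control summit lay within 1 kb before that start. Pcdhgc4, required for the survival of many neurons, had 3 control summits of 4 to 6 fragments and 1 MICAL1-FL summit of 5. Pcdhgc5 had 7 in each list in 22.3 kb, and 2 of them overlapped between the lists. The 5 C-type genes thus showed no common direction between the libraries.

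Control summits were denser just after gene starts than in the rest of each gene's stretch, in all 3 arrays. The gene table gives no strand, and starts of beta genes were taken to be their lower coordinates, as in the flanking arrays. Within 1 kb on either side of a start, 29 of the 58 genes had a control summit (alpha 5, beta 8, gamma 16) and 18 had a MICAL1-FL summit (alpha 5, beta 2, gamma 11), beside 22.2% and 21.7% of 16457 protein-coding genes on other autosomes. In both lists, 14 of the 58 had one, beside 8.02% of those genes. The share of members is above the background in the gamma array, and for beta genes in the MICAL1-FL list it is not. The gamma array is dense in peaks throughout, as given above, and the part of that density in its share was not tested. Within 500 bp of a start, 13 of the 58 genes had a control summit and 9 a MICAL1-FL summit, beside 14.3% and 14.4% of the other genes. The first 2.5 kb after each start, the side on which the variable exon lies, was counted as well; this length was chosen after seeing the data.

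In the first 2.5 kb the control list had a summit in 41 of the 58 genes (alpha 9, beta 11, gamma 21), beside 23.7% of other genes, and the MICAL1-FL list in 24 (alpha 9, beta 2, gamma 13), beside 22.4%. Both lists had one in 20 genes (alpha 6, beta 2, gamma 12), beside 8.67%. The part of the arrays' peak density in these shares was not tested. All 19 gamma A and B genes had a control summit there and 12 of them a MICAL1-FL summit. In the control list these first stretches of the gamma genes held 33 summits, 600.0 per Mb against 199.8 per Mb in the rest of their stretches, and in the MICAL1-FL list 18 summits, 327 against 256 per Mb. The density in the first 2.5 kb was 3.002 times that of the rest among gamma control summits (1.73 to 5.27) and 1.28 times among MICAL1-FL summits (0.676 to 2.35), the latter with an interval that includes 1. Of all gamma summits, 56.9% of the control (43.2 to 69.8) and 36% of the MICAL1-FL ones (22.9 to 50.8) lay in the first 2.5 kb, with intervals that overlap; these first stretches are 30.5% of the length. For alpha genes the shares were 37.1% and 37.0% on 13.5% of the length, and the density was 3.78 (1.75 to 7.83) and 3.76 (1.54 to 8.69) times that of the rest. The beta genes had 12 control and 3 MICAL1-FL summits there, at 5.49 (2.06 to 15.49) and 1.83 (0.296 to 8.57) times the rest. Other genes had 105 control summits per Mb in their first 2.5 kb and 44.2 in the next 2.5 kb, with 99.2 and 41.7 in the MICAL1-FL list. For the members the comparison was with the whole rest of a stretch, which can be far longer. The multiples of the members can therefore not be set against those of other genes.

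**Figure D4:**
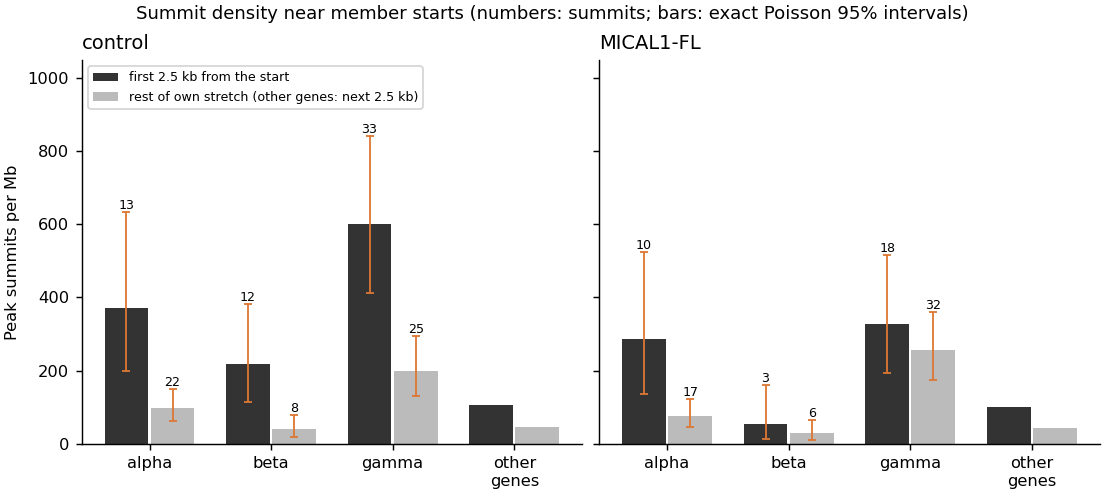
Bars give peak summits per Mb in the first 2.5 kb from the start of each gene (dark) and in the rest of its own stretch (light; for other genes, the next 2.5 kb), for the control (left) and MICAL1-FL (right) libraries; numbers are summits and orange lines are exact Poisson 95% intervals. The dark gamma bar is 600.0 in the control panel and 327 in the MICAL1-FL panel, beside light bars of 199.8 and 256, and the dark alpha bars are 371 and 286.

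Array peaks were deeper and wider than those of the autosomes. In the arrays, at least 7 fragments were found at 35.7% of the control (26.9 to 45.3) and 29.1% of the MICAL1-FL peaks (19.8 to 39.9), beside 16.6% and 14.1% of autosomal peaks. By array these shares were 40% and 29.6% in alpha, 22.2% and 11.1% in beta, and 37.3% and 32% in gamma. The beta intervals (6.41 to 47.6 and 0.281 to 48.2) and the MICAL1-FL interval of alpha (13.8 to 50.2) include the autosomal shares. The median depth was 6 fragments in the arrays in both lists and 5 over the autosomes; in the beta array it was 6 for control and 5 for MICAL1-FL peaks. A width of 800 bp or more was reached by 22 control array peaks (19.6%) and 11 MICAL1-FL array peaks (12.8%), beside 2.46% and 2.14% of autosomal peaks, and by no beta peak. The widest array peaks, of 2172 bp and 1915 bp, were both in the gamma array.

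The background level under the peaks was not higher in the arrays. This level, recovered together with the depth, stood above its lowest level at 28.6% of control array peaks (20.4 to 37.9) and 13.95% of MICAL1-FL array peaks (7.42 to 23.1), beside 37.2% and 31.6% of autosomal peaks. Its highest value in the arrays was 2.77 fragments. Members of an array resemble each other in sequence, no source used here says how reads with several possible places were handled, and single positions are uncertain to that extent.

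Peaks of the arrays overlapped between the libraries more often than peaks of the autosomes. Of the control array peaks 28 (25%, 17.3 to 34.1) shared at least 1 bp with a MICAL1-FL peak, and of the MICAL1-FL array peaks 28 (32.6%, 22.8 to 43.5) overlapped a control peak, beside 6.85% and 7.23% over the autosomes. Of each 28, 8 were in the alpha array, 2 in the beta array and 18 in the gamma array. The beta shares, 11.1% (1.38 to 34.7) for control and 22.2% (2.81 to 60.0) for MICAL1-FL peaks, have intervals that include the autosomal shares. The arrays also held more peaks per Mb than the autosomes, as given above, and the part of that density in these shares was not tested. The overlaps made 30 pairs, and their summits lay a median of 345 bp apart, with 7 pairs within 250 bp. These 7 were in Pcdha11, Pcdhb17 (summits 39 bp apart), Pcdhgb5 (53 bp), the border of Pcdhgb6 and Pcdhga10 (223 bp), Pcdhgb8 (40 bp), Pcdhga12 (220 bp) and Pcdhgc5 (56 bp). With the narrower demand that summits lie within 250 bp, the shares were 6.25% and 8.14%, beside 4.47% and 4.72% over the autosomes, and their intervals (2.55 to 12.5 and 3.34 to 16.1) include the autosomal shares.

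The pairs also let the depths of overlapping peaks be set side by side. Each depth is that at the peak's own summit, and the paired summits lay a median of 345 bp and up to 1920 bp apart. The control peak was the deeper in 19 of 30 pairs, the MICAL1-FL peak in 6, and they were equal in 5. Some peaks belong to several pairs, and the same count over all autosomal pairs was not made. Control peaks were the deeper over the autosomes as well, where at least 7 fragments were found at 16.6% of control and 14.1% of MICAL1-FL peaks. The widest gaps within a pair were of 4 fragments. One was at the border of Pcdhgb6 and Pcdhga10, where a control peak of 11 fragments at 37746907 to 37747949 met MICAL1-FL peaks of 7 fragments on either side, at 37746554 to 37747162 and 37747485 to 37749399. Another was in the stretch of Pcdha7, where a control peak of 9 fragments at 36973880 to 36974317 overlapped a MICAL1-FL peak of 5 at 36974230 to 36974551. In the stretch of Pcdhga12 a control peak of 10 fragments overlapped one of 6, but further on a control peak of 5 at 37770752 to 37771541 overlapped a MICAL1-FL peak of 7. Depths are not scaled to the libraries' reads, whose totals are not among the values used here.

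Fewer array peaks were listed in the MICAL1-FL library than in the control, but the interval of the ratio included 1. The ratio of MICAL1-FL to control peaks was 0.768 (0.573 to 1.03) over the 3 arrays, 0.771 (0.449 to 1.31) in alpha, 0.5 (0.198 to 1.17) in beta and 0.847 (0.570 to 1.257) in gamma. Over all autosomes it was 0.947 (0.939 to 0.955), and over chromosome 18 outside the arrays 0.976. With 5 kb on either side, each array's interval includes the autosomal ratio. For the beta array this rested on the added 5 kb: over the genes alone it had 14 control peaks against 4 in the MICAL1-FL list, and the ratio of 0.286 (0.0685 to 0.910) lay below the autosomal one. The 1 Mb on either side gave 0.742 (0.557 to 0.984), a value inside the interval of the arrays.

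The ratio was lower among deeper peaks. With at least 6 fragments the arrays had 74 and 47 peaks (control and MICAL1-FL) and a ratio of 0.635 (0.431 to 0.928). With at least 7 they had 40 and 25 (0.625, 0.363 to 1.06), and with at least 8 they had 17 and 6 (0.353, 0.114 to 0.938). Over the autosomes the same limits gave 0.863, 0.804 and 0.746, all inside the intervals of the arrays. At 6 fragments or more the beta array had 10 control peaks against 1 in the MICAL1-FL list, and the ratio was 0.100 with an interval of 0.00230 to 0.703 that lies below the autosomal value of 0.863. That contrast is 1 of the many that the depth limits and arrays allow, and it rests on 1 library per condition.

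**Figure D5:**
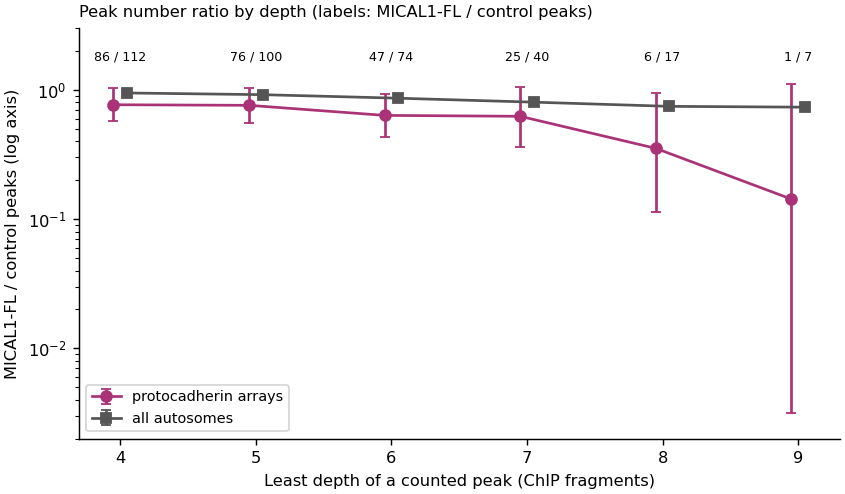
Points give the number of MICAL1-FL peaks over the number of control peaks, on a log axis, against the least depth of a counted peak in ChIP fragments, for the 3 protocadherin arrays together (purple) and all autosomes (grey); error bars are exact 95% intervals for counting error and the numbers above are the MICAL1-FL and control array peaks. The array ratio is 0.768 with all peaks and 0.353 with at least 8 fragments, and its intervals take in the autosomal ratio at each depth.

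Other gene families had densities below those of the alpha and gamma arrays. The Hox values in both lists, and the cadherin value in the MICAL1-FL list, lay inside the intervals of the beta array. The other cadherins and the protocadherins outside the clusters, 49 genes over 12.1 Mb, had 566 control and 589 MICAL1-FL peaks, or 46.8 and 48.7 per Mb, near the autosomal level. The 4 Hox clusters, tandem arrays of developmental transcription factor genes, had 35 and 24 peaks in 39 genes, or 77.5 and 53.1 per Mb. The 1109 olfactory receptor genes, of which a sensory neuron expresses a single one, had 230 and 175 peaks, or 18.2 and 13.9 per Mb, below the autosomal level. The ratio of MICAL1-FL to control peaks was 1.04 (0.926 to 1.17) in the cadherins, 0.686 (0.390 to 1.19) in the Hox genes and 0.761 (0.621 to 0.930) in the olfactory receptors, so values near those of the protocadherin arrays occurred in the other tandem families too.

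Genes that act on the arrays or downstream of their proteins were also counted, with 5 kb on either side. Control peaks were found in 64% and MICAL1-FL peaks in 61.2% of all 21887 protein-coding genes. Of 20 genes of promoter choice and silencing, control peaks were found in 12, MICAL1-FL peaks in 17 and both in 11. Those included Stag1, a cohesin subunit, with 11 and 14 peaks, Nipbl, which loads cohesin, with 4 and 4, Wapl, which releases it, with 4 and 2, Atf7ip, a partner of the H3K9 methyltransferase SETDB1, with 8 and 5, and Smchd1, a silencer of the clustered protocadherins, with 2 and 3. Ctcf, the insulator protein that binds array promoters, had 0 control and 3 MICAL1-FL peaks, while Stag2 and Trim28 had none. Of 19 genes of protocadherin signalling, all 19 had control peaks and 15 had peaks in both lists. The kinases Ptk2 and Ptk2b, which the constant parts of the alpha and gamma proteins bind and inhibit, had 6 and 11 and 6 and 9 peaks, Fyn had 22 and 19, Pak1 had 4 and 7 and Cyfip1, of the WAVE actin complex, had 4 and 3. Gene length was not matched in these counts, and long genes hold more peaks. In the list of 20 genes, the 12 with control peaks are near the share of all genes. The share of all protein-coding genes with peaks in both lists was not counted, so the counts in both lists have no background beside them.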

How the data were processed

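The authors deposited 1 peak list per ChIP library. The input sample, labelled as input of control neurons, was not analysed here. The submitters' processing notes name MACS 1.4.2, Bowtie 1.3.0, ChIPseeker 1.26.2 and SAMtools 1.9, without roles; for the build and the calling threshold, nothing is given in the sources used here. The deposited columns are a score (the whole part of 10 times -log10 p), a fold (ratio) over background, -log10 p, -log10 q and the summit's offset. Total reads are not in the lists. Depth in fragments, with the background, was recovered from the deposited fold and -log10 p for 99.97% of peaks of each list (-log10 p met within 0.001; 38 control and 30 MICAL1-FL peaks, 0 of them in the arrays, were not recovered).

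Array members, the 2 pathway lists and the comparison families were chosen with earlier results of these data known. Genes come from RefSeq GRCm38.p6 by symbol; all 58 members matched. That table has no strand, so the lower coordinate was taken as the start: alpha and gamma models share their other end, and the beta genes were assumed to run the same way. Other genes' starts used the 16457 genes with a strand. Read-through models that overlap the arrays were not counted as members. Named in full are each array's peak with the highest -log10 p in each list, the 3 genes per array with most summits, genes with summits in both lists, C-type genes, overlapping peaks, and the first 5 genes of each pathway list with peaks in both lists; other members are named for their counts.

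Intervals are exact, at 95%: Clopper-Pearson for shares and densities (as shares of autosomal peaks), conditional binomial for ratios. Python 3.11.15, pandas 2.3.3, NumPy 2.4.6 and SciPy 1.17.1 were used. Steps were tested on simulated data, where 100% of 5000 depths, 100 of 100 planted array peaks and 897 of 897 shared peaks were recovered. Alternatives covered the membership rule, flank, thresholds, overlap rule and start window. The first 2.5 kb, the limit of 8 fragments, the splits of the gamma and alpha arrays, and the autosomal windows and pieces were added after seeing the data.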

Additional observations from a re-analysis of the deposited data

How the results depend on the processing

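Membership rules (summit or whole peak inside; no flank, 2 kb or 10 kb), p at most 0.01 and gaps counted in the density moved no count over all arrays by over 1.5 times and no ratio outside its interval. In the beta array alone, the 9 MICAL1-FL peaks became 4 without a flank and 5 at p at most 0.01, against 14 and 15 control peaks; the ratios were 0.286 (0.0685 to 0.910) and 0.333 (0.0948 to 0.965). Stricter limits lowered the number of peaks. In the control list 37 array peaks had p at most 0.001, 3 had q at most 0.05, and 74, 40, 17 and 7 had at least 6, 7, 8 and 9 fragments; in the MICAL1-FL list these were 25, 0, 47, 25, 6 and 1. The ratio for all arrays was 0.353 at 8 fragments, 0.143 at 9 and 0 at q of 0.05; for alpha 0.400 at 8 and 0 at q of 0.05; for beta 0.100 at 6 and 0 at 8, and no ratio exists at 9 or at q of 0.05, where no control beta peak is left; for gamma 0.364 at 8, 0 at 9 and 0 at q of 0.05. These rest on fewer peaks. Overlap was 6.25% and 8.14% of control and MICAL1-FL array peaks with summits within 250 bp, and 50.9% and 59.3% where gaps of up to 1 kb were allowed (17.8% and 18.7% over the autosomes). Summits near starts numbered 6, 13 and 56 in the control list within 250, 500 and 2000 bp, and 7, 9 and 39 in the MICAL1-FL list, against 32 and 21 within 1 kb. With 2 kb in place of 2.5 kb, gamma summits of the MICAL1-FL list were 0.977 times as dense after starts as in the rest, against 1.28 times. No paired analysis was possible because each condition has 1 ChIP library and no test was made. No library could be left out for the same reason. At 4 to 11 fragments a peak, whether a site listed in 1 library is absent from the other was not detectable.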
